A study of Mus musculus with 31 samples.

Results

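Metalloproteinases and their tissue inhibitors were followed in liver cell preparations of lean and diet-fed mice. The set holds matrix metalloproteinases (Mmp), tissue inhibitors of metalloproteinases (Timp), membrane disintegrin-metalloproteinases (Adam) and secreted ones with thrombospondin repeats (Adamts), taken by gene symbol. A gene was kept where its mean was at least 1 CPM (counts per M, or mega, counts of a library, scaled between libraries by TMM) over the hepatocyte libraries or over the stellate cell libraries. Of 25239 symbols in the table, 76 matched by name and 39 passed the level: 7 secreted MMPs, 5 membrane-bound MMPs, 2 inhibitors, 13 ADAMs and 12 ADAMTSs. The other 37 fell short, and 9 of them had 0 counts in all 31 libraries. Just inside the level stood Adam1b at 1.09, Adamts12 at 1.20 and Mmp11 at 1.28 CPM, and just outside it Adam4 at 0.792, Adam6b at 0.741 and Mmp3 at 0.689 CPM. In both preparations 34 members reached the level, in hepatocyte libraries alone 3, and in the libraries labelled HSC alone 2.

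The mice were C57BL/6J, an inbred laboratory strain with no engineered allele named, of both sexes. They ate standard chow or, for 16 weeks, the FPC diet, rich in fructose, palmitate and cholesterol, which the sample names call NASH, after the inflammatory form of fatty liver disease. Of the digested livers, hepatocytes were taken as the low-speed pellet and hepatic stellate cells (HSC), the vitamin A-storing pericytes of the liver, from the rest on a density layer. The 8 groups of sex, diet and preparation held 4 libraries each, said to come from independent mice, except HSC females on chow, with 3 libraries (numbers 1, 2 and 4). The questions the design poses are what the diet does in each sex and whether the sexes differ. Ages at the start were not in the sources used here.

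Metalloproteinases are zinc enzymes. MMPs cleave collagens and other matrix proteins outside the cell, most are made as inactive precursors, and TIMPs block the active enzymes by binding to them one to one. ADAMs on the cell surface shed the outer parts of membrane proteins such as cytokines and Notch ligands and receptors, and ADAMTS enzymes cleave procollagens, proteoglycans and von Willebrand factor. In the injured liver, stellate cells, macrophages and neutrophils are known sources of these enzymes and inhibitors.

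Of the members, Mmp13, Mmp27 and Mmp7 lie in the MMP cluster of chromosome 9, where 8 genes that match the names stand side by side in GRCm38 (GENCODE M21). Mmp13, a collagenase, spans 7272514 to 7283331, Mmp27, a little-studied enzyme, 7571396 to 7581885, and Mmp7, matrilysin, 7692090 to 7699585, each on the plus strand. The 250 bases before each start are shown because Mmp13 and Mmp27 head several of the comparisons below while the third cluster member does not. They come from RefSeq (GRCm38.p6), are written 5′ to 3′ on the plus strand, and were chosen for display after the values were seen. Capitals mark the letters TGACTCA or TGAGTCA, the AP-1 motif, which are each other's reverse complement, so that both strands were searched.
Mmp13, chr9:7272264-7272513: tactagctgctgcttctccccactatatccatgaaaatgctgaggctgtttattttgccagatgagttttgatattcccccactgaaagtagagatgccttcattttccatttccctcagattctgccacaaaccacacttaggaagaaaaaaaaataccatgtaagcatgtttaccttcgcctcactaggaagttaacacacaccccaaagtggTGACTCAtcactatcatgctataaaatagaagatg
Mmp27, chr9:7571146-7571395: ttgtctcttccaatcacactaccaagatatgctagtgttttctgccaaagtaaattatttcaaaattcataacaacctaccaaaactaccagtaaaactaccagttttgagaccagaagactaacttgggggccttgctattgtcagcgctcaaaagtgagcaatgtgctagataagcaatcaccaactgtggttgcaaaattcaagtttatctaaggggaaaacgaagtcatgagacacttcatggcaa
Mmp7, chr9:7691840-7692089: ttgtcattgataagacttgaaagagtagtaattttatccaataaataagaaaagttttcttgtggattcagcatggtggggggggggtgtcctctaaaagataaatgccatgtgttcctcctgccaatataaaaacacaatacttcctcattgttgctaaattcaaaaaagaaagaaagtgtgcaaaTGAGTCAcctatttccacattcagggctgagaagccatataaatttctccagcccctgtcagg
The motif begins 35 bases before the start of Mmp13 and 63 bases before that of Mmp7, and these letters are not in the window of Mmp27. Among 26 members with a RefSeq promoter, 3 held it (Mmp13, Mmp7 and Adam19), against 5.16% of 27025 genes with a promoter of this length. A match describes letters and is not a measured binding site.

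Depth ran from 3.44 to 30.4 M counts (M, mega) in the hepatocyte libraries and from 9.44 to 40.3 M in those labelled HSC. Hepatocyte male FPC 4 stood apart, with 94.5% of its counts in the ribosomal precursor Rn45s and in Lars2 and 1.49 M counts in other genes, against at most 3.59% in these 2 genes elsewhere. Hepatocyte markers bore out the hepatocyte label, with 15 of 15 lower in the libraries labelled HSC. Stellate cell markers went against the HSC label. On a scale shared by all libraries, 13 of 14 (Lrat, Reln, Des and others) had a lower median there, and the level of the list, a mean of log2(CPM + 1), was 2.17 to 4.69 there and 3.34 to 5.88 in hepatocyte libraries. No stellate cell marker had a median of 0 in either preparation. Lymphocyte markers, 12 of 12 higher by median, reached 6.54 to 8.17 in the libraries labelled HSC and 4.79 to 6.76 in hepatocyte libraries. Endothelial markers, 14 of 14, and markers of activated stellate cells, 10 of 12 with 1 higher, had a lower median in the libraries labelled HSC. A value in hepatocyte libraries is therefore not shown to come from hepatocytes. Libraries of both preparations are called by their label and not as a cell type. In bulk RNA, fewer cells of a type and less RNA per cell cannot be told apart.

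On chow, the highest levels per kilobase of exon in hepatocyte libraries, on the scale of all 31 libraries, belonged to enzymes and inhibitors of the cell surface and matrix. Mmp14, the membrane-type MMP that activates Mmp2, stood at 25.3 ± 6.17 CPM per kb (SD, n = 8). The inhibitors Timp3, which binds to matrix, and Timp2 followed at 23.5 ± 11.6 and 22.8 ± 4.08, and Adam10, a main sheddase of Notch, at 18.02 ± 11.9. Adam9, Adam15, Adam23, which lacks protease activity, and Adam17, the tumour necrosis factor sheddase, had 12.2, 11.7, 10.4 and 9.01 CPM per kb. Libraries labelled HSC began with Adam10 at 27.1 ± 11.1 (SD, n = 7), Adam19 at 18.7 ± 4.87 and Adam17 at 15.2 ± 3.56 CPM per kb. Timp3 at 15.0, Mmp14 at 12.9, Adam8 at 12.7, Timp2 at 12.3 and Adam9 at 11.7 CPM per kb came next. Neighbours overlapped in range throughout both orders of 8, so neither order is resolved step by step.

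The comparison of the preparations on chow called 26 of 39 members at an adjusted p under 0.05, 9 higher and 17 lower in libraries labelled HSC, where 59.6% of all 15754 genes tested were called, 32.8% higher and 26.8% lower. DESeq2 also called 26, with 62.4% of all genes. The members' total share is near that background, but more members were lower than higher, the reverse of all genes. The labels do not say which libraries of the 2 preparations share a mouse. With libraries of equal sex, diet and number taken as a mouse in a block, there were 25 calls, beside 57.4% of all genes. Adam15 (adjusted p = 0.0728), Adam17 (0.0814) and Mmp17 (0.0548) were then lost, and Adam11 (0.0324) and Adam12 (0.0393) gained. The members' median log2 difference was −0.63 in the main fit, against 0.20 over all genes. By role the members split: 5 ADAMs were higher and 2 lower, 3 ADAMTSs higher and 7 lower, 1 membrane-bound MMP higher and 4 lower, 0 secreted MMPs higher and 3 lower, and 1 of the 2 inhibitors was lower. Adam1a and Adam1b had met the CPM level in libraries labelled HSC alone, and Adamts5, Adamts12 and Adamts15 in hepatocyte libraries alone. That selection favoured the direction in which all of them but Adamts12 were called, so these calls are no support for the split. Values below are CPM on the scale of all libraries, as mean ± SD over 7 libraries labelled HSC and 8 hepatocyte libraries.

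**Figure D1:**
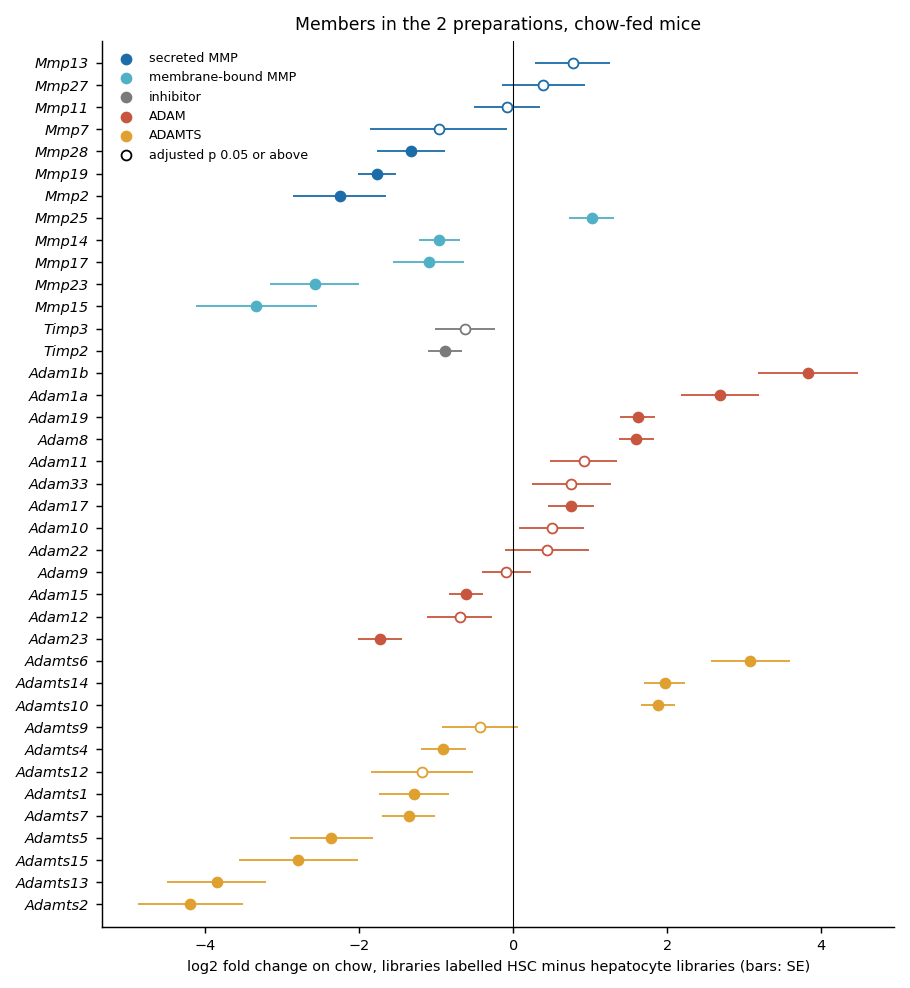
Log2 fold change of each member between chow libraries labelled HSC and hepatocyte chow libraries (x axis), by role, with bars for the standard error. Filled points are called: most ADAMs lie to the right and most ADAMTSs and MMPs to the left, from −4.19 for Adamts2 to 3.83 for Adam1b. Adam1b is a member only through its level in libraries labelled HSC.

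Among the 9 members called higher in libraries labelled HSC, Adamts10, which acts on fibrillin microfibrils, had 72.1 ± 17.6 against 19.0 ± 6.98 CPM (log2 difference 1.88 ± 0.22 SE, adjusted p = 1.74e-07). Adamts14, a procollagen N-proteinase, had 16.8 ± 2.69 against 4.50 ± 2.28 CPM, a log2 difference of 1.97 ± 0.27. Adam19 and Adam8, a sheddase of leukocytes, were 1.61 ± 0.23 and 1.60 ± 0.23 higher on the log2 scale, at 133 ± 34.7 and 59.0 ± 29.9 CPM against 42.0 ± 12.6 and 17.9 ± 5.86. Adamts6 was 3.08 ± 0.52 higher, at 13.4 ± 7.59 against 1.19 ± 0.844 CPM. In Adamts10, Adamts14, Adam19, Adam8 and Adam1b every library labelled HSC lay above every hepatocyte library. Adam1b, 3.83 ± 0.65 higher, and its neighbour Adam1a, 2.69 ± 0.50 higher, stayed low at 0.939 and 3.46 CPM. Both are members only through their level in libraries labelled HSC. Mmp25, the membrane-anchored MMP of neutrophils, was 1.02 ± 0.29 higher, with 10.1 ± 3.69 against 4.94 ± 2.25 CPM, and the 2 ranges overlapped. Beside it, 5 of 12 neutrophil markers were called higher and 0 lower, and their part in the Mmp25 value was not tested.

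Among the 17 members called lower in libraries labelled HSC, Adamts2, the main procollagen I N-proteinase, had 0.624 ± 0.300 against 11.3 ± 4.34 CPM, a log2 difference of −4.19 ± 0.68 (adjusted p = 1.39e-05). Adamts13, which cleaves von Willebrand factor and is made by stellate cells, had 0.688 ± 0.414 against 9.99 ± 4.96 CPM, a log2 difference of −3.85 ± 0.64. Mmp19, a secreted MMP, had 9.18 ± 4.17 against 30.9 ± 6.17 CPM (−1.77 ± 0.24), and Adam23 54.6 ± 27.3 against 185 ± 61.7 CPM (−1.73 ± 0.29). Mmp2, gelatinase A, stood at 2.40 ± 0.463 against 11.4 ± 4.53 CPM and Timp2, its partner at the cell surface, at 47.8 ± 6.82 against 88.9 ± 15.9 CPM. Mmp15, a membrane-type MMP, had 2.35 ± 2.70 against 23.4 ± 15.7 CPM (−3.34 ± 0.78). For Adamts2, Adamts13, Adamts15, Mmp19, Mmp2, Mmp23 and Timp2 every library labelled HSC lay below every hepatocyte library. Together, 12 of 39 members did not overlap in either direction, beside 22.5% of all genes. In the same comparison 13 of 14 stellate cell, 13 of 14 endothelial and 15 of 15 hepatocyte markers were called lower and 10 of 12 lymphocyte markers higher. Their part in these differences was not tested. Timp3 (adjusted p = 0.165), Adam10 (0.308), Adam9 (0.813) and Mmp11 (0.877) did not pass the test, among 13 members in all.

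From here on CPM values are scaled within a preparation, and the 38 members tested there are compared between diets and sexes. No member was called by edgeR in any of these 10 comparisons. Names below are the 3 members with the smallest p in each, with a few others set beside them, and "higher" and "lower" describe values that did not pass the test. Counts at an unadjusted p under 0.05 and by DESeq2 are given with each comparison, beside the share of all genes that met the same rule.

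In hepatocyte libraries of females, the FPC diet called 0 of 38 members by edgeR, where 0.249% of all 14430 genes were called. At an unadjusted p under 0.05 there were 10, of which 6 were higher, beside 16.2% of all genes. DESeq2 called 5 (Adamts6, Mmp25, Adamts10, Mmp19 and Adamts7), where it called 4.43% of all genes. The median member lay at 0.21 on the log2 scale, against 0.12 over all genes. Adamts6, an ADAMTS of heart and vessel development, had 0.875, 2.15, 0.388 and 0.808 CPM on chow and 11.5, 1.74, 5.94 and 5.40 CPM on FPC. Female FPC 2 lay within the range on chow and the other 3 above it (log2 fold change 2.49 ± 0.66 SE, adjusted p = 0.0991 by edgeR). Mmp19 had 30.6, 19.8, 22.0 and 26.3 CPM on chow and 9.79, 11.4, 14.7 and 11.3 CPM on FPC, so that the 2 groups did not overlap. Its log2 fold change was −1.07 ± 0.33 (adjusted p = 0.137). Adamts10 was the other member without overlap, with 14.0 to 22.8 CPM on chow and 25.8 to 44.8 CPM on FPC (1.10 ± 0.35, adjusted p = 0.145). Without overlap were thus 2 of 38 members, beside 5.57% of all genes.

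Mmp25 in the same libraries had 2.37, 6.42, 7.64 and 3.41 CPM on chow and 21.9, 26.0, 14.2 and 4.36 CPM on FPC. Female FPC 1, 2 and 3 were high and number 4 stood within the chow range, so the log2 fold change was 1.75 ± 0.48 with an adjusted p of 0.105. The neutrophil marker list ran with it, at 7.89, 7.55, 6.36 and 3.91 (mean log2(CPM + 1)) in those FPC libraries and 3.93 to 5.57 on chow. All 12 listed markers were in the table, the median marker was 2.86 higher on FPC on the log2 scale, and 0 were called. Their part in the Mmp25 value was not tested. Without female FPC 4, edgeR called Mmp25 at 2.03 ± 0.40 (adjusted p = 0.0477), beside 0.283% of all genes. Without female FPC 2 it called Adamts6 at 2.78 ± 0.62 (adjusted p = 0.0449), beside 1.13% of all genes.

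**Figure D2:**
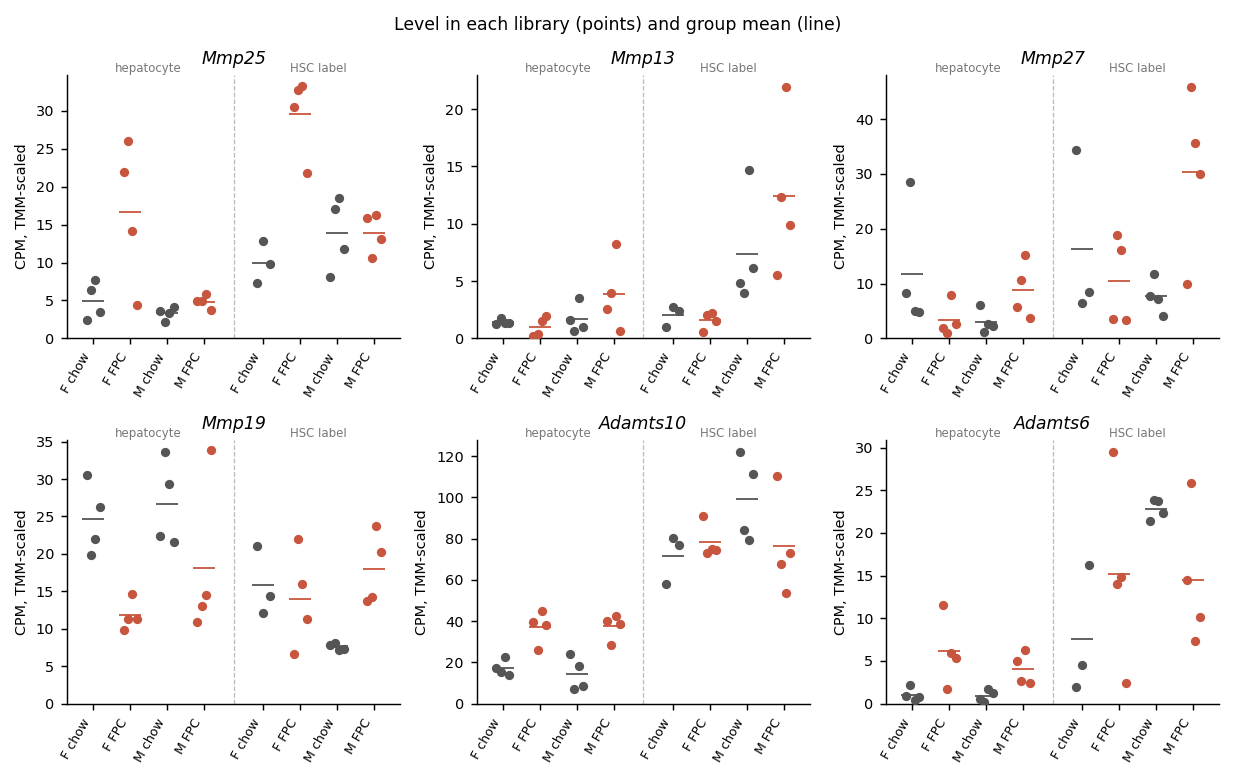
CPM in each library (points) and group mean (line) for 6 members chosen for display after their values were seen; grey is chow, red is FPC, F and M are the sexes, and each panel has its own y axis from 0. Mmp25 is high in 3 of 4 hepatocyte and in 4 of 4 HSC-labelled libraries of FPC-fed females, and Mmp13 is highest in HSC-labelled libraries of males.

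In hepatocyte libraries of males, 0 of 38 members were called, with 0.437% of all genes. The count at an unadjusted p under 0.05 was 10, 9 of them higher on FPC, near the 24.7% of all genes. DESeq2 called 5, each higher (Adamts10, Adam8, Adamts6, Adamts9 and Adam11), with 9% of all genes. The median member was at 0.67, against 0.08 over all genes, and 9 of 12 ADAMs and 10 of 12 ADAMTSs had positive values. Adamts10 had 24.0, 6.86, 18.4 and 8.66 CPM on chow and 40.2, 28.5, 42.7 and 38.8 CPM on FPC, with no overlap (1.38 ± 0.35, adjusted p = 0.0838). Adam8 had 16.4, 11.6, 16.3 and 8.10 CPM on chow and 34.0, 25.0, 35.7 and 17.9 CPM on FPC, again with no overlap (1.12 ± 0.32, adjusted p = 0.0919). Adamts6 had 0.546, 0.153, 1.66 and 1.26 CPM on chow and 4.99, 2.70, 6.23 and 2.46 CPM on FPC (2.12 ± 0.68, adjusted p = 0.104). Groups did not overlap for 7 members (Adam8, Adamts6, Adamts9, Adamts10 and Adamts14 above, Adam15 and Mmp28 below), beside 17.2% of all genes, which is near the members' share.

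Some of these values turned on male FPC 4, the library rich in Rn45s. Mmp19 had 33.9 CPM there and 10.9 to 14.5 CPM in the other FPC males, against 21.7 to 33.6 CPM on chow, and Adam11 had 73.9 CPM there against 6.81 to 16.7 CPM. Without this library edgeR called 4 members: Adamts10 at 1.42 ± 0.38 (adjusted p = 0.0291), Adam8 at 1.32 ± 0.33 (0.0219), Adam19 at 1.22 ± 0.37 (0.0491) and Mmp19 at −1.02 ± 0.27 (0.0306). It then called 1438 of 14520 genes, or 9.9%, which is near the members' share. Adamts6 then had 2.31 ± 0.71 with an adjusted p of 0.0502. The median hepatocyte marker was 1.78 lower on FPC in the males and 1.24 lower in the females, with 1 and 0 of 15 called, and their part in these values was not tested. Of the inhibitors, Timp2 had 65.3 to 83.5 CPM on chow and 50.5 to 92.4 CPM on FPC in males, and Timp3 61.2 to 287 and 115 to 169 CPM. In females Timp3 had 143, 163, 78.2 and 221 CPM on chow and 31.7, 51.3, 149 and 143 CPM on FPC (−0.69 ± 0.50, adjusted p = 0.507), and the groups overlapped.

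The diet effect was compared between the sexes as an interaction, the male effect minus the female effect. In hepatocyte libraries it called 0 of 38 members by edgeR and 0 by DESeq2, with 0% and 0.0139% of all genes, and 1 member had an unadjusted p under 0.05, as had 4.19% of all genes. That was Mmp27, at 3.42 ± 1.02 with an adjusted p of 0.978. Its levels in females were 8.24, 28.6, 4.92 and 4.85 CPM on chow and 1.88, 1.02, 7.94 and 2.65 CPM on FPC. In males they were 6.00, 1.07, 2.55 and 2.24 CPM on chow and 5.64, 10.6, 15.2 and 3.70 CPM on FPC. The values were lower on FPC in females and higher in males, and the groups overlapped in both sexes. Adam17 (1.24 ± 0.63) and Mmp28, a secreted MMP also called epilysin (−1.67 ± 0.88), followed, each with an adjusted p of 0.978.

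**Figure D3:**
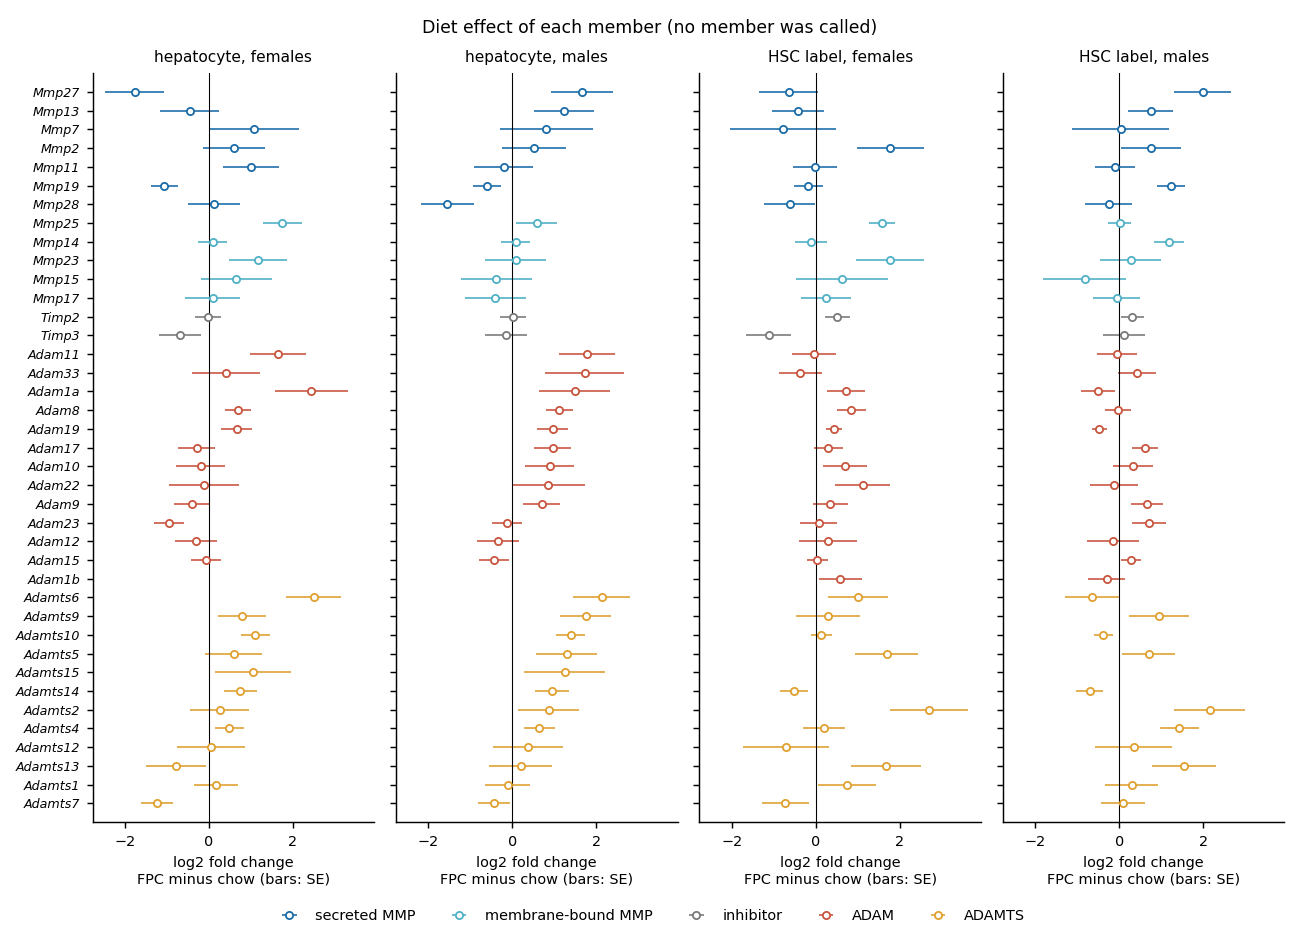
Log2 fold change of each member tested, FPC minus chow, in the 4 combinations of preparation and sex, by role, with bars for the standard error. Open points mark that 0 members were called, and in hepatocyte libraries of males 27 of 38 points lie right of 0.

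In libraries labelled HSC from females, the diet called 0 of 38 members and 0% of all 15430 genes by edgeR. The count at an unadjusted p under 0.05 was 7, each higher on FPC, beside 10.1% of all genes. DESeq2 called 1, Mmp25, with 1.71% of all genes. The median member was at 0.29, against 0.02 over all genes. Mmp25 had 7.33, 12.9 and 9.77 CPM on chow and 30.5, 32.8, 33.3 and 21.8 CPM on FPC, with every FPC library above every chow library (1.57 ± 0.31, adjusted p = 0.197 by edgeR and 0.000485 by DESeq2). Neutrophil markers in these libraries were at 4.99 to 6.15 on chow and 5.20 to 8.38 on FPC (mean log2(CPM + 1)), the median marker was 2.15 higher on the log2 scale, and 0 of 12 were called. Their part was not tested. Adam19 was the other member without overlap, at 110 to 133 CPM on chow and 141 to 186 CPM on FPC, which makes 2 of 38 beside 4.12% of all genes. Timp3 had 66.2, 110 and 343 CPM on chow and 27.7, 138, 96.0 and 55.9 CPM on FPC (−1.12 ± 0.54, adjusted p = 0.504), and the groups overlapped.

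Female FPC 4 labelled HSC differed from its group in several members. Adamts2 had 0.543, 2.72 and 3.40 CPM in FPC libraries 1 to 3 and 22.7 CPM in number 4, against 0.948 to 1.35 CPM on chow. Mmp2 likewise had 1.00 to 4.37 and then 27.6 CPM, and Timp2 61.9 to 72.7 and then 141 CPM. The stellate cell marker list stood at 4.86 in that library and at 2.37 to 4.03 in the other 3. With all libraries Adamts2 had a log2 fold change of 2.69 ± 0.93 (adjusted p = 0.394), and without this one 0.95 ± 0.62 (adjusted p = 0.313). Mmp25 was called without it, at 1.69 ± 0.31 (adjusted p = 0.0333), beside 6.24% of all genes. Adam8 had 36.2 to 53.3 CPM on chow and 47.8 to 113 CPM on FPC (0.84 ± 0.34, adjusted p = 0.440).

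In males, the libraries labelled HSC gave 0 of 38 members called for the diet by edgeR and 0 by DESeq2, with 0% and 0.428% of all genes, and 7 at an unadjusted p under 0.05, 5 of them higher, beside 5.68% of all genes. The median member was at 0.27, against −0.02 over all genes. Mmp19 had 7.87, 8.15, 7.19 and 7.31 CPM on chow and 13.8, 14.2, 23.8 and 20.2 CPM on FPC, with no overlap (1.23 ± 0.33, adjusted p = 0.482). Fitted with the 2 male groups alone, it was called at 1.18 ± 0.18 (adjusted p = 0.0474), beside 0.387% of all genes. Mmp14 had 92.3, 70.4, 73.1 and 78.2 CPM on chow and 168, 120, 239 and 180 CPM on FPC, also with no overlap (1.17 ± 0.36, adjusted p = 0.584). Adamts4, an aggrecanase, had 1.07 to 2.49 CPM on chow and 1.88 to 5.47 CPM on FPC (1.42 ± 0.46, adjusted p = 0.604). In all, 6 members lay above their chow range (Mmp14, Mmp19, Adam9, Adam17, Adamts2 and Adamts13) and 0 below it. Of all 15430 genes, 953 lay above and 522 below, which is 9.56% for both directions together. The median stellate cell marker was 1.08 higher on FPC in these males and 1.27 higher in the females, with 0 of 14 called in each, and their part was not tested.

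The interaction in libraries labelled HSC called 0 of 38 members by edgeR and 2 by DESeq2 (Mmp25 and Adam19), with 0% and 0.363% of all genes, and 5 had an unadjusted p under 0.05, as had 8.69% of all genes. DESeq2 gave no adjusted p here for many members, among them Mmp19, Mmp13, Adam1a and Adamts4. Such members, and such genes in the 0.363%, count as not called without a DESeq2 result. Mmp25 had a difference of −1.56 ± 0.41 (adjusted p = 0.548 by edgeR, 0.0437 by DESeq2). Its male values were 8.15, 17.1, 18.5 and 11.7 CPM on chow and 15.8, 10.6, 16.2 and 13.1 CPM on FPC, which overlapped, while the female groups given above did not. Adam19 had −0.91 ± 0.27 (0.548 by edgeR, 0.0496 by DESeq2), with 147 to 220 CPM on chow and 116 to 161 CPM on FPC in males. Mmp19 followed at 1.42 ± 0.48 (0.548), and Mmp27 at 2.64 ± 0.98 (0.548), a difference of the same sign as in hepatocyte libraries.

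Between the sexes, hepatocyte libraries on chow gave 0 of 38 members called by edgeR and 0 by DESeq2, with 0.43% and 1.05% of all genes, and 2 at an unadjusted p under 0.05, beside 5.98% of all genes. These were Mmp27, at −2.03 ± 0.73 in males minus females (adjusted p = 0.576), and Mmp28, at 1.61 ± 0.62 (adjusted p = 0.669). Mmp27 had 28.6 CPM in female chow 2, against 4.85 to 8.24 CPM in the other females and 1.07 to 6.00 CPM in males, with overlap. Mmp28 had 2.83, 1.04, 1.81 and 2.60 CPM in females and 7.64, 5.19, 3.25 and 9.36 CPM in males, which did not overlap. Adamts14 had 3.604, 6.38, 7.12 and 1.98 CPM in females and 3.27, 2.75, 2.87 and 2.10 CPM in males, with overlap (−0.80 ± 0.41, adjusted p = 0.896). Adam11 and Adam1a were the further members without overlap, 3 in all, each higher in males, beside 4.71% of all genes.

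On FPC, hepatocyte libraries gave 0 of 38 members called between the sexes by edgeR and 1 by DESeq2, with 0.333% and 1.24% of all genes, and 4 at an unadjusted p under 0.05, near the 11.4% of all genes. Mmp25 was that 1 member: males had 4.99, 4.86, 5.81 and 3.70 CPM, against the 4.36 to 26.0 CPM of the females. The difference was −1.75 ± 0.48 (adjusted p = 0.211 by edgeR, 0.0439 by DESeq2), and −2.03 ± 0.41 without female FPC 4 (adjusted p = 0.0373 by edgeR, beside 0.499% of all genes). In the same contrast 8 of 12 neutrophil markers were called lower in males, with a median difference of −4.16, and their part in the Mmp25 value was not tested. Mmp13 had 0.244, 0.410, 1.47 and 1.99 CPM in females and 2.52, 4.00, 8.27 and 0.616 CPM in males (1.99 ± 0.72, adjusted p = 0.359). Adamts7 had 2.997, 8.70, 7.68 and 5.11 CPM in females and 8.11, 11.3, 10.4 and 22.8 CPM in males (1.06 ± 0.39, adjusted p = 0.360). Groups overlapped for all 38 members, where 2.58% of all genes did not overlap.

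Libraries labelled HSC on chow gave 0 of 38 members called between the sexes by edgeR and 8 by DESeq2, with 0.0518% and 15.7% of all genes. At an unadjusted p under 0.05 there were 9, of which 7 were higher in males, beside 29.5% of all genes. Adam1a had 1.12, 1.28 and 2.61 CPM in females and 7.79, 5.48, 5.25 and 6.00 CPM in males, with no overlap (1.87 ± 0.47, adjusted p = 0.0848). Adam1a and Adam1b are known from sperm, as subunits of fertilin. Adamts4 had 2.52, 3.67 and 7.89 CPM in females and 2.49, 1.39, 1.35 and 1.07 CPM in males, also without overlap (−1.57 ± 0.49, adjusted p = 0.0924). Adam19 had 126, 133 and 110 CPM in females and 220, 147, 214 and 178 CPM in males (0.62 ± 0.20, adjusted p = 0.0935). No overlap was seen in 12 members, 7 above and 5 below, and in 38.9% of all genes.

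Female chow 4 labelled HSC differed from numbers 1 and 2 of that group of 3. Adam10 had 193 CPM in it against 80.9 and 50.7 CPM, Timp3 343 against 66.2 and 110 CPM, and Adamts6 16.3 against 1.98 and 4.58 CPM. Without it edgeR called 4 members between the sexes: Adam1a at 2.33 ± 0.53 (adjusted p = 0.0233), Adam1b at 2.02 ± 0.60 (0.0370), Adam22, an ADAM without protease activity, at 2.59 ± 0.75 (0.0356) and Adamts6 at 2.78 ± 0.80 (0.0349). It then called 3019 of 15792 genes, or 19.1%, so the members' share lay below that of all genes. Those estimates rest on 2 female libraries. Adamts4 then had −0.99 ± 0.49 (adjusted p = 0.155).

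On FPC, the libraries labelled HSC gave 0 of 38 members called between the sexes by edgeR and 2 by DESeq2 (Mmp13 and Mmp25), with 0.0583% and 0.933% of all genes, and 5 at an unadjusted p under 0.05, near the 10% of all genes. Mmp13 had 0.516, 2.01, 2.18 and 1.55 CPM in females and 5.57, 12.3, 21.9 and 9.86 CPM in males, with every male above every female. Its difference, 3.02 ± 0.60, is 8.09-fold, with an adjusted p of 0.104 by edgeR and 6.44e-05 by DESeq2. On chow the sexes did not overlap in Mmp13 either, at 0.989, 2.76 and 2.42 CPM in females and 4.82, 3.95, 14.7 and 6.16 CPM in males (1.84 ± 0.62, adjusted p = 0.102 by edgeR, 0.0234 by DESeq2). Mmp25 ran the other way on FPC, at −1.08 ± 0.28 (adjusted p = 0.326 by edgeR, 0.0264 by DESeq2), with 10.6 to 16.2 CPM in males and 21.8 to 33.3 CPM in females. The median neutrophil marker was 3.33 lower in these males, with 0 of 12 called, and its part was not tested. Adam17 had 106, 183, 178 and 50.3 CPM in females and 229, 251, 230 and 224 CPM in males, without overlap (0.85 ± 0.32, adjusted p = 0.444). With Adam33, 4 members did not overlap, beside 4.52% of all genes. The diet and sex comparisons share libraries, so values that recur among them are not separate observations.

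**Figure D4:**
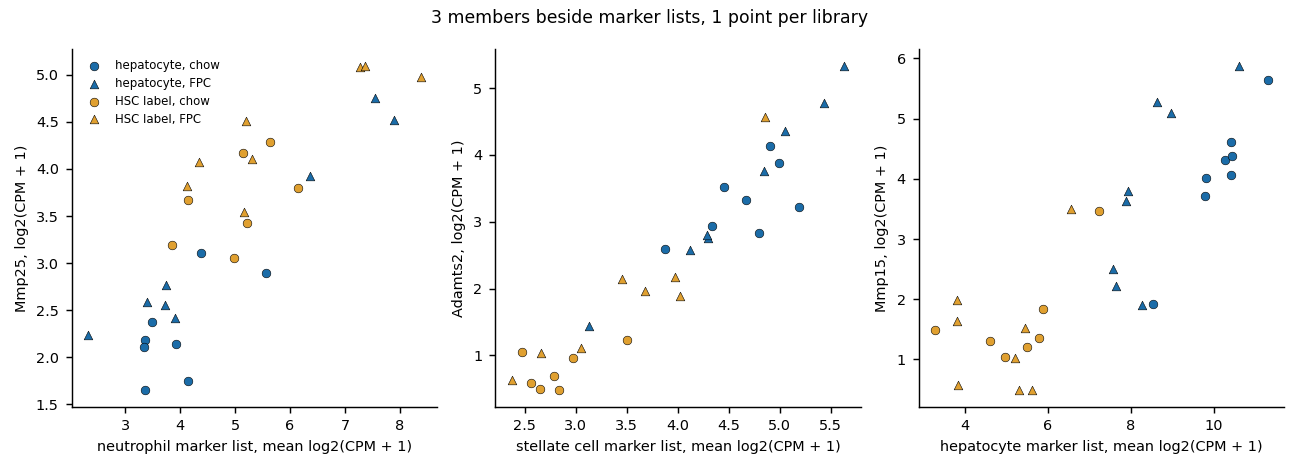
Level of 3 members (y axis, log2(CPM + 1)) against the level of a marker list (x axis, mean log2(CPM + 1)) in each of 31 libraries; colour is the preparation and shape the diet, and the pairs were chosen after their values were seen. Over all points, libraries with more of the neutrophil, stellate cell or hepatocyte list also tend to have more Mmp25, Adamts2 or Mmp15, as a description with no test. Levels are scaled within each preparation, so points of different colour are not on a shared scale, and the gap between the preparations enters this pattern.

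The levels of 3 members are set beside those of marker lists. Mmp25 was lowest, at 2.14 CPM, in hepatocyte male chow 2, where the neutrophil list stood at 3.37, and highest, at 33.3 CPM, in HSC-labelled female FPC 3, where it stood at 7.36. Adamts2 had 39.4 CPM in hepatocyte male FPC 4, where the stellate cell list was highest at 5.63, and 0.392 CPM in HSC-labelled male chow 2, where it was at 2.84. Mmp15 had 57.9 CPM in hepatocyte male FPC 4 and 48.7 CPM in hepatocyte male chow 2, the libraries with the hepatocyte list at 10.6 and 11.3, and 0.402 CPM in HSC-labelled female FPC 2, with the list at 5.63. These levels are scaled within each preparation, so values of the 2 preparations are not on a shared scale. The points share library depth and composition. Hepatocyte male FPC 4, which gives the highest Adamts2 and Mmp15 values, is the Rn45s-rich library with 1.49 M counts in other genes.

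Other genes of the pathway were taken from lists of activators, further inhibitors, ADAM regulators, ADAM substrates, ADAMTS relatives and matrix substrates. In the 10 comparisons of diet and sex 0 genes of these lists were called. Between the preparations on chow, where 26.8% of all genes were called lower and 32.8% higher, libraries labelled HSC were lower in 33 of 39 matrix substrates tested and higher in 1, for example Col18a1 with 8.12 ± 5.82 against 360 ± 170 CPM and Sparc with 164 ± 88.2 against 761 ± 201 CPM. Among 16 activators 12 were lower and 1 higher; plasminogen (Plg), made by hepatocytes, had 20.7 ± 18.1 against 915 ± 398 CPM. Of 17 further inhibitors 10 were lower and 0 higher. In total that is near the 59.6% of all genes called, but by direction it is not, beside 26.8% lower and 32.8% higher. ADAM substrates were called in both directions, 7 higher and 17 lower of 41. Their total was also near 59.6%, but lower calls outnumbered higher ones, the reverse of all genes. Notch2 had 278 ± 79.9 against 103 ± 26.2 CPM and the cadherin Cdh2 1.74 ± 1.23 against 28.1 ± 11.7 CPM. The ADAM regulators Tspan5 and Rhbdf2 were the 2 higher of 14 tested, with 4 lower. In HSC-labelled libraries of females on FPC, 32 of 39 matrix substrates had positive values with a median of 1.27 on the log2 scale, against 0.02 over all genes. In those of males 33 of 39 were positive, with a median of 0.70 against −0.02. In hepatocyte libraries 25 of 37 in females and 26 of 37 in males were positive, each with a median of 0.50, against 0.12 and 0.08. Col1a2 in HSC-labelled females had 16.2 ± 19.9 against 2.19 ± 0.916 CPM (adjusted p = 0.353), a spread in which the FPC SD exceeded the mean.

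The remaining members were low or uneven between libraries. Adamts7, an ADAMTS of cartilage and vessel wall, had 16.1, 8.41, 19.5 and 13.7 CPM on chow and 2.997, 8.70, 7.68 and 5.11 CPM on FPC in hepatocyte libraries of females (−1.24 ± 0.38, adjusted p = 0.139), where 1 FPC library reached the lowest chow library. Adamts9, a versican-cleaving enzyme, had 1.37 to 3.82 CPM on chow and 4.50 to 23.4 CPM on FPC in hepatocyte libraries of males, the highest in the Rn45s-rich library (1.74 ± 0.61, adjusted p = 0.120). Mmp7, the third cluster member shown, was uneven, from 0.128 to 11.8 CPM in hepatocyte libraries and from 0.124 to 5.47 CPM in those labelled HSC. Adamts1, an aggrecanase, ranged from 8.68 to 80.7 CPM and from 8.47 to 81.5 CPM, with its lowest and highest value in both preparations among FPC-fed females. The membrane-bound Mmp23 and Mmp17 reached 17.6 and 4.91 CPM in hepatocyte libraries and 8.55 and 2.93 CPM in those labelled HSC, the last 2 in female FPC 4. Adam12, Adam33, Adam22, Mmp11, Adamts5, Adamts12 and Adamts15 stayed at or under 10.5 CPM in every library. Hepatocyte male FPC 4 held the highest hepatocyte value of Adam33, Adamts5, Adamts12 and Adamts15, at 3.70, 10.5, 4.31 and 7.39 CPM.

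The spans of some members overlap those of protein-coding neighbours in GENCODE M21, and the strand setting of the counting is not given in the sources used here. Timp3 overlaps Syn3, Mmp19 Tmem198b, Adam17 Iah1, Adamts7 Tbc1d2b, Mmp11 Chchd10 and Mmp28 the gene 1700020L24Rik, each on the other strand. Timp2 overlaps Cep295nl and Adam1a overlaps Mapkapk5 on the same strand, and Adam1a and Adam1b overlap Tmem116 on the other. Whether the counting told reads of these members and of their neighbours apart was not tested.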

How the data were processed

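RNA of hepatocyte and stellate cell preparations was amplified and sequenced, per the labels' protocols. The authors deposited raw counts for each symbol in each library. Alignment used STAR with the mm10 build and counting used featureCounts, per the submitters' processing notes; versions and settings are not stated there. Groups came from the labels. From the counts, edgeR 4.0.16 (R 4.3.3) fitted a quasi-likelihood model of 4 groups in each preparation, and of 8 groups in 31 libraries between preparations on chow, after filterByExpr and TMM scaling. Tests were two-sided, with Benjamini-Hochberg adjustment over all genes tested and a threshold of 0.05. DESeq2 1.42.0 was an alternative, beside its size factors, no filter, the compared groups alone, a replicate block and offsets for GC and length. Others were removal of Rn45s, Lars2 and Mir6236 before scaling, and leaving out each library. The block was the replicate number within a preparation. Between preparations it took libraries of equal sex, diet and number as a mouse. edgeR was kept as the main test although DESeq2 called more members. Named members were those called, at most 10 by p, or otherwise the 3 with the smallest p, the 8 highest per kilobase, and up to 3 per pathway list. The members, gene lists and tests were chosen with earlier results of these data known; other members named, and those plotted, were chosen after their values were seen. The fit was tested on simulated data. Positions, exon lengths and overlaps are from GENCODE M21, which matched 39 of 39 members. Some genes of these families are not reported here. Amplified reads are not independent molecules.

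Equal replicate numbers were checked by correlating deviations from group means. Among the diet and sex comparisons, only in the hepatocyte sex comparison on FPC did every pair pass 0.1, at 0.265, 0.493, 0.642 and 0.386; blocking changed no call of a member there. Between the preparations on chow the males passed it, at 0.149, 0.395, 0.183 and 0.148, and the females did not, at −0.195, −0.383 and 0.408. On FPC the females had 0.828, −0.459, 0.825 and 0.429, and the males 0.551, −0.238, −0.377 and 0.435. The labels tie no number to a mouse, so the main fits did not pair libraries by number. A block that did so was run only as an alternative. Plots and summaries used matplotlib 3.10.9, pandas 2.3.3, numpy 2.4.6 and Python 3.11.15.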

Additional observations from a re-analysis of the deposited data

Results flagged for a closer look

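In groups of 4 libraries, 12 values of members lay far from the other 3, among 168 groups of 24 genes tested; chance alone gives about 1 in 20. HSC-labelled female FPC 4 accounts for 4 of them, each its group's highest: Adamts2 at 22.7 CPM against 0.543 to 3.40, Adam15 at 106 against 52.9 to 58.0, Adamts7 at 13.0 against 4.81 to 5.66, and Timp2 at 141 against 61.9 to 72.7. The stellate cell list was also highest in this library of its group. Elsewhere in libraries labelled HSC, Adamts10 had 90.9 CPM in female FPC 1 against 73.2 to 74.8, Adamts4 9.05 CPM in female FPC 2 against 3.83 to 4.37, and Adam8 70.6 CPM in male FPC 2 against 91.8 to 94.4.

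In hepatocyte libraries, Mmp27 had 28.6 CPM in female chow 2 against 4.85 to 8.24, Mmp19 33.9 CPM in male FPC 4 against 10.9 to 14.5, and Adamts4 3.78 CPM in male FPC 2 against 5.36 to 5.66. Adam1b was at 0 CPM in female FPC 2 against 0.418 to 0.473, and at 0.140 CPM in male chow 4 against 0 in the other 3, which is too low to read.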

How the results depend on the processing

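The 26 calls between preparations held in 22 genes under every alternative run; Adam15, Adam17, Adamts1 and Mmp17 were lost in some, and the count ran from 23 to 29 on leaving out 1 library. The 0 calls between diets and sexes did not hold in every setting. DESeq2 called 5 members for the hepatocyte diet effect in females, 5 in males and 1 for the sex difference on FPC. In libraries labelled HSC it called 1 for the diet effect in females, 2 for the interaction, 8 for the sex difference on chow and 2 on FPC. GC and length offsets called 2 in hepatocyte libraries of females (Adamts6 and Adamts7) and 139 of all genes. Fits of the compared groups alone called 1 for the HSC diet effect in males (57 of all genes) and 5 for the HSC sex difference on chow (2962 of all genes). Leaving out 1 library gave 0 to 1 members in the hepatocyte diet effect in females and 0 to 4 in males, 0 to 1 in the hepatocyte sex difference on FPC, 0 to 1 in the HSC diet effect in females and 0 to 4 in the HSC sex difference on chow, and 0 in the others. The cause of these changes was not tested. Over all genes, calls went from 63 to 1438 without hepatocyte male FPC 4, from 0 to 963 in the female HSC diet effect without female FPC 4, and from 8 to 3019 in the HSC sex difference on chow without female chow 4. With the replicate number as a block, 1 member was called in the HSC sex difference on FPC (Mmp13, 2.98 ± 0.36, adjusted p = 0.00908). The share of all genes called there is not given here, so the call cannot be read as particular to Mmp13. Equal numbers are not known to pair libraries, and 0 members changed call in the other diet and sex comparisons. With libraries of equal sex, diet and number taken as a mouse, the preparation comparison had 25 calls. Among 40 gene results, 679 of 706 alternatives kept direction and side of the threshold, 27 passed it newly, and 0 reversed. A missing adjusted p counted as not called in this tally, as for Mmp19 by DESeq2 in the HSC interaction. Of the calls between preparations it holds only the 10 with the smallest p. The lost calls of Adam15, Adam17, Adamts1 and Mmp17 are outside it. Members by CPM without TMM numbered 39 as well. Depth limits hepatocyte male FPC 4 most.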
